A study of Drosophila melanogaster with 12 samples.

Results

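Ovaries in which nxf2 was knocked down in the germline were compared with ovaries of the attp2 stock. The comparison was chosen by the library names of the count table and holds 4 of its 12 RNA-seq libraries, 2 of each group, and all 15446 listed genes. Flies of both groups carry an age of 3 to 5 with no unit in the labels, were kept at 25°C and were given yeast, and total RNA of their ovaries was sequenced. The attp2 flies are labelled wild type, and the knockdown flies are labelled by nxf2 alone, and the sources used here do not give the driver, the hairpin or any allele that both groups share. The knockdown is described as specific to the germline, and an ovary also holds somatic follicle cells, which were sequenced with it. A second wild-type stock, W1118, and a CRISPR mutant of nxf2 (genotype nxf2 -/-), with 2 libraries each and the same age and food, are used below only to place the knockdown values.

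Nxf2 belongs to the family of nuclear RNA export factors, whose best known member, Nxf1, carries mRNA out of the nucleus with its partner Nxt1. In the Drosophila ovary Nxf2 is known instead for work in the piRNA pathway. There the Argonaute protein Piwi, guided by small RNAs, finds nascent transposon transcripts, and Panoramix (Panx) with Nxf2 and Nxt1 helps to silence them at the chromatin. No member of a list of 30 transposon names is in the table, so the results below are about host genes.

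The libraries held 11100934 and 11260925 counts in attp2 and 9274939 and 9228876 in the knockdown, and 8224 genes had enough counts to be tested. Levels are given as CPM, counts scaled to a common library size by TMM, which do not allow for gene length and are therefore compared between libraries and not between genes. By edgeR's quasi-likelihood test at a Benjamini-Hochberg adjusted p under 0.05, 188 genes (2.29% of those tested) were called. Of these, 124 (1.51%) were higher and 64 (0.778%) lower in the knockdown, and 103 and 50 of them differed at least 2-fold. The counts include genes listed more than once with the same values (4 tal entries, and CG9510 with CG9515), so that 184 of the 188 are distinct, 121 higher and 63 lower. Both knockdown libraries lay outside the range of both attp2 libraries for all 188, as they did for 50.4% of all tested genes. Scaling by the upper quartile split the calls into 129 higher and 109 lower, leaving libraries unscaled gave 119 and 116, and omitting the filter gave 168 and 147. A fit that shared its spread with the other 8 libraries called 1356 of 8638 genes (15.7%), including 187 of the 188. Replicates of attp2 and of the knockdown differed from each other far more than those of W1118. Chi-square over its degrees of freedom was 35.7, 16.8 and 1.59, respectively, and 11.5 in the nxf2 mutant, nearer the knockdown than W1118. The spread of the 4 libraries alone was used. The labels do not say that replicates came from separate flies, so p-values measure the spread between these libraries, which may be technical.

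**Figure D1:**
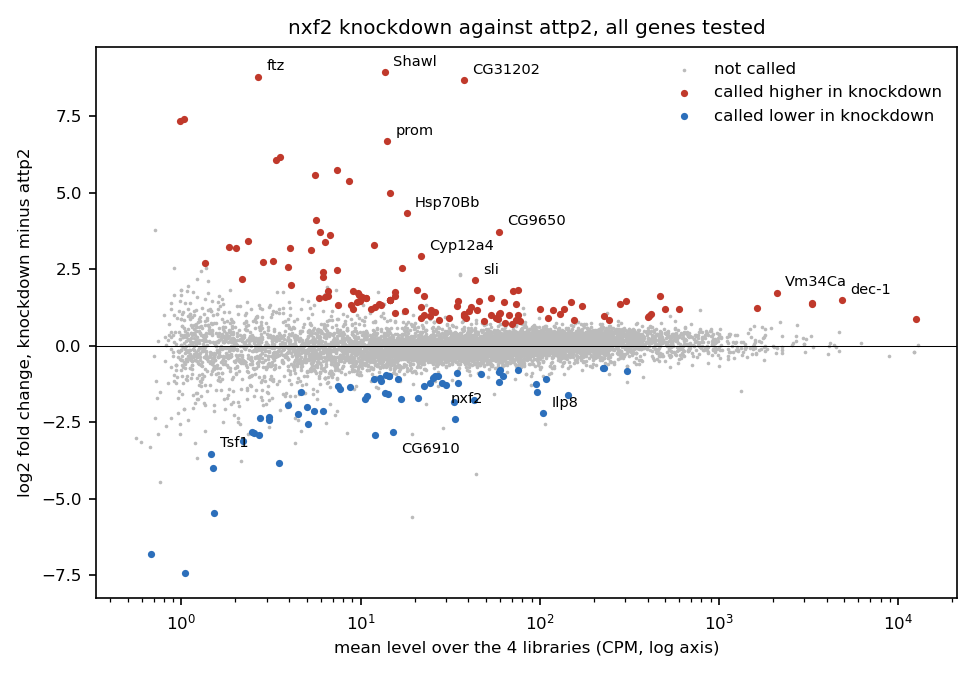
Mean level over the 4 libraries (CPM, log axis) against the log2 fold change of the knockdown over attp2, 1 point per gene tested. Red points are the 124 genes called higher, blue points the 64 called lower and grey points genes not called; 35 of the red and 21 of the blue points differ at least 4-fold.

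The targeted gene was examined first. nxf2 stood at 34.7 and 45.2 CPM in attp2 and at 18.3 and 16.4 CPM in the knockdown. Both knockdown libraries were below both attp2 libraries, and the gene fell 2.30-fold (adjusted p = 0.0198, log2 -1.20 with an SE of 0.19). W1118 ovaries had 66.0 and 65.3 CPM and the nxf2 mutant 28.3 and 31.9 CPM. Panx, listed under its older name CG9754, was at 126 and 144 CPM in attp2 and at 224 and 215 CPM in the knockdown. It was higher in both knockdown libraries but did not pass (log2 0.70, SE 0.16, adjusted p = 0.0598), although it did by DESeq2 (adjusted p = 0.00624) and in the fit of 12 libraries (0.00059). Nxt1, the export cofactor, was at 19.5 and 26.8 CPM against 17.9 and 18.6 CPM (log2 -0.35, SE 0.21, adjusted p = 0.418). piwi overlapped between the groups, with 1532 and 924 CPM in attp2 and 701 and 1425 CPM in the knockdown (adjusted p = 0.802). The sign of its log2 difference of -0.21 turned when the first library of either group was left out. In W1118, Panx was at 45.0 and 41.9 CPM and piwi at 265 and 280 CPM, each below both attp2 and the knockdown. Nxt1 stood at 25.9 and 17.9 CPM there.

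Apart from nxf2, no gene of the piRNA lists was called in this fit. Of 24 tested genes of transcriptional silencing, nxf2 was the one call, and the list's median log2 fold change was -0.017 beside -0.006 over all genes tested. None was called among 19 genes of piRNA cluster transcription and export, 21 of nuage and ping-pong and 11 of primary processing, where 2.29% of all tested genes were, so no call in lists of this size is near the background. Over all genes 1410 had an unadjusted p under 0.05. In the 12-library fit, 2 genes of silencing rose and 1 fell, 2 of cluster transcription rose and 2 fell, and 3 of nuage rose and 1 fell, where 15.7% of all genes in that fit were called. Rhino (rhi), the heterochromatin protein that marks piRNA clusters, was at 36.9 and 31.3 CPM against 24.2 and 21.4 CPM (log2 -0.58, adjusted p = 0.161). Wde (wde), a cofactor of the histone methyltransferase Eggless, was at 132 and 129 CPM against 172 and 174 CPM (log2 0.41, adjusted p = 0.214), and Maelstrom (mael) had 89.3 and 90.1 CPM against 89.7 and 88.8 CPM. The largest distance from 0 in the nuage list was that of me31B, an RNA helicase of P bodies, with 1911 and 2276 CPM against 2303 and 4398 CPM (log2 0.68, adjusted p = 0.267), where the first knockdown library was near the second of attp2. No call was made among 27 tested genes of germline stem cells and differentiation, 22 of meiosis, 14 of germ plasm or 28 of DNA damage and repair.

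The largest rises were of genes that attp2 ovaries hardly expressed. Shawl, which encodes a voltage-gated potassium channel, had 1 count in both attp2 libraries together and 486 counts in the knockdown, at 18.2 and 36.2 CPM. The ratio is 627, with a 95% counting interval of 112 to 24800 (adjusted p = 0.00116). CG31202, now named alpha-Man-Ic, a class I mannosidase gene, rose from 0.179 and 0.168 to 96.6 and 54.2 CPM (log2 8.67, SE 0.47, adjusted p = 0.000154). prom, which encodes a membrane protein of the prominin family, rose from 0.268 and 0.252 to 29.3 and 26.4 CPM (log2 6.68, SE 0.31, adjusted p = 8.66e-05). In each of these genes the knockdown libraries stood apart from all 4 wild-type libraries: W1118 had none of CG31202 or prom and at most 0.145 CPM of Shawl, and 0 counts in a library allow up to 0.733 CPM in the shallower W1118 library.

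Further genes of the 12 largest rises were also low in attp2. CG42329 rose from 0.446 and 0.0841 to 8.44 and 20.6 CPM, a call lost without the second attp2 library. CG3491 rose from 0.0893 and 0.336 to 11.99 and 9.90 CPM. unc-13-4A, a gene of the Unc-13 family of vesicle priming proteins, rose from 0.446 and 0.336 to 12.7 and 20.8 CPM, and CG10440 (now twz) from 1.25 and 0.421 to 10.7 and 11.5 CPM. All 4 had no count in either W1118 library. CG42255 (now Cubn2) rose from a mean of 0.875 CPM to 36.8 and 19.6 CPM (log2 5.00, SE 0.43, adjusted p = 0.00117), and Dscam2, which encodes a cell adhesion molecule of the immunoglobulin superfamily, from 0.714 and 0.505 to 14.0 and 7.31 CPM (log2 4.11, SE 0.47, adjusted p = 0.00596). W1118 had 4.89 and 2.91 CPM of CG42255 and 1.96 and 2.47 CPM of Dscam2, above attp2 and below the knockdown. CG9650 (now Cph), a zinc finger transcription factor gene, was already expressed in attp2, at 10.1 and 6.48 CPM, and rose to 114 and 106 CPM (log2 3.73, SE 0.22, adjusted p = 0.000222), with 15.9 and 13.5 CPM in W1118.

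**Figure D2:**
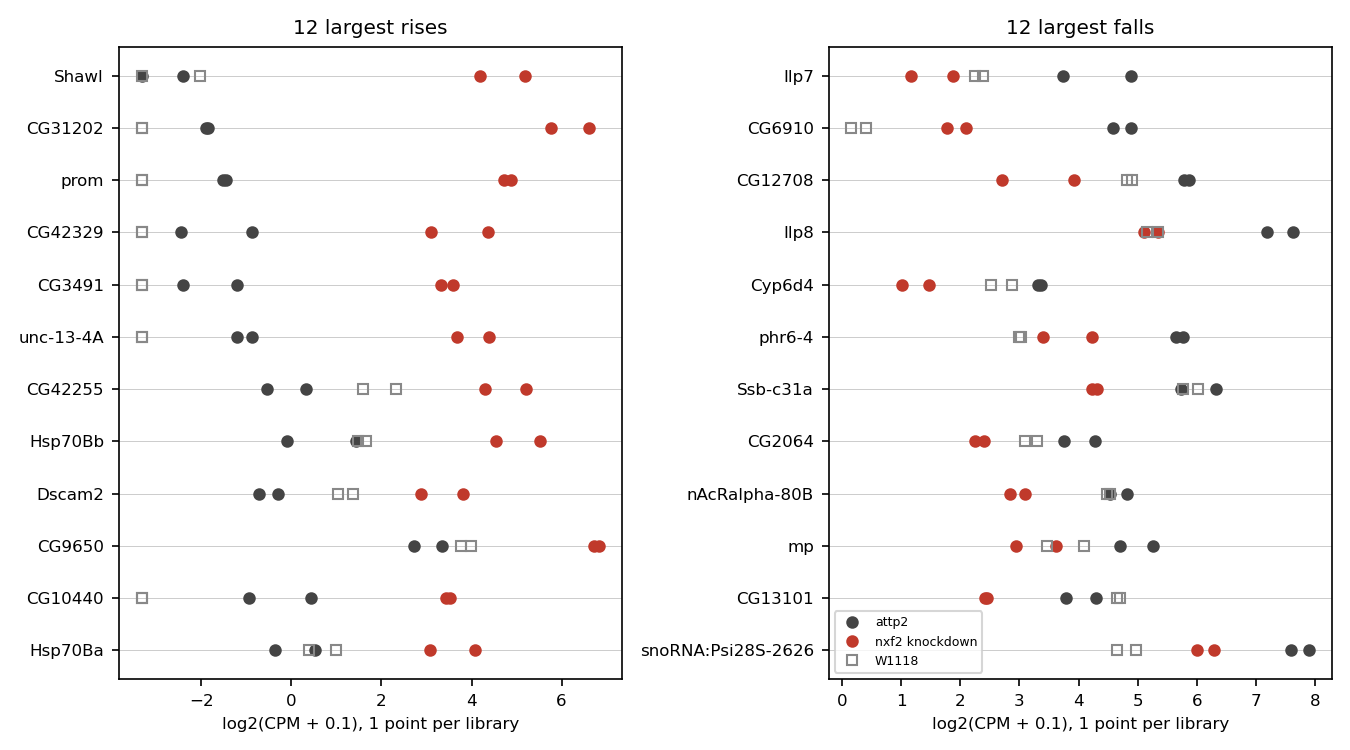
Levels of the 12 largest rises (left) and 12 largest falls (right) among called genes with a mean of at least 10 CPM in the higher group, as log2(CPM + 0.1), 1 point per library. The knockdown (red) lies apart from attp2 (dark) in every row; W1118 (open squares) lies below the knockdown for all 12 rises, and on the side of the knockdown or beyond it for several falls, such as Ilp8, CG6910 and phr6-4.

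Of the 30 tested genes on a list of Hox and developmental transcription factors 1 was called, near the 2.29% of all tested genes. The list's median log2 fold change was 0.23. Of the list's 97 genes 67 were too low to be tested. The called gene was ftz. The pair-rule homeobox gene ftz had no count in attp2 and 96 counts in the knockdown, at 3.11 and 7.65 CPM, which is at least 41.3-fold higher against a floor of 3 counts over the group (adjusted p = 0.0119). It also had no count in any of the other 8 libraries. Other called genes of development, picked after their values were seen, are given as single values. The neighbouring genes danr and dan, which encode nuclear factors of eye and antenna development, rose from 0.446 and 0.252 to 2.33 and 4.39 CPM and from 1.43 and 0.841 to 5.44 and 7.99 CPM. Lim3, a LIM homeobox gene of motor neurons, rose from 0.893 and 0.757 to 3.55 and 7.76 CPM. Neither W1118 library had a count of danr, dan or Lim3. sli, which encodes the axon guidance ligand Slit, rose from 16.9 and 15.1 to 79.1 and 63.1 CPM (log2 2.15, adjusted p = 0.00117) against 11.7 and 11.5 CPM in W1118. Of the 26 tested neuronal genes Shawl was the one called, which is also near 2.29%. The pan-neuronal gene elav was at 6.69 and 6.31 CPM against 5.33 and 8.89 CPM. Syt4, a synaptotagmin gene, was absent from the first attp2 library and at 3.53 CPM in the second, against 43.8 and 50.4 CPM in the knockdown (adjusted p = 0.0869), and did not pass in this fit.

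The eggshell genes made the largest group of rises. The vitelline membrane is the inner layer of the eggshell, secreted by follicle cells around the growing oocyte before they lay down the outer layer, the chorion. Of 10 tested vitelline membrane genes 9 rose and none fell, where 1.51% of all tested genes rose, and the list's median log2 fold change was 1.38. Vm32E, a structural protein gene of the layer, stood at 162 and 161 CPM in attp2 and at 457 and 426 CPM in the knockdown (log2 1.45, SE 0.16, adjusted p = 0.00544). Vm34Ca was at 1041 and 902 CPM against 3773 and 2701 CPM, and Vm26Ab at 1816 and 1912 CPM against 5184 and 4387 CPM. The chorion assembly gene dec-1 was at 2650 and 2471 CPM against 7677 and 6624 CPM (log2 1.48, SE 0.17, adjusted p = 0.00596), and the palisade gene psd at 156 and 157 CPM against 418 and 395 CPM. Across the 9 genes the log2 fold changes lay between 1.14, of Vm26Ac, and 1.84, of Fcp3C. The member that was not called was clos (closca), a vitelline membrane gene that is also needed to pattern the embryo's ends, with 271 and 268 CPM against 272 and 331 CPM (log2 0.16, adjusted p = 0.646).

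**Figure D3:**
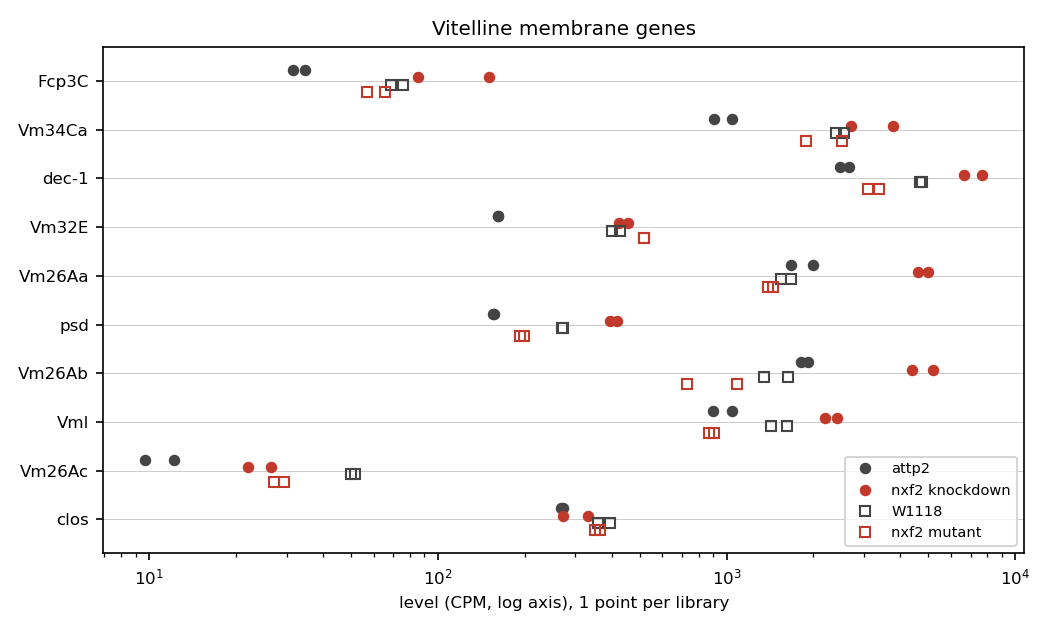
Levels of the 10 vitelline membrane genes (CPM, log axis), 1 point per library, in attp2, the knockdown, W1118 and the nxf2 mutant. The knockdown lies above attp2 for 9 genes by 1.14 to 1.84 on the log2 scale, with no such gap for clos, while W1118 lies above attp2 for several genes and near the knockdown for Vm32E.

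Chorion genes rose less evenly, though their share was also above the 1.51% of all tested genes that rose. Of 21 tested, 6 rose and none fell, their log2 fold changes ran from -1.48 to 1.22 around a median of 0.76, and 10 rose when the first attp2 library was left out. Leaving out that library or either one of the knockdown let 1 gene fall. The major chorion gene Cp38 rose from 9854 and 8040 to 15660 and 17180 CPM (log2 0.88, SE 0.17, adjusted p = 0.0395). The mucin gene Muc4B rose from 403 and 319 to 893 and 768 CPM (log2 1.20, SE 0.19, adjusted p = 0.017), and Cp7Fb from 235 and 371 to 790 and 616 CPM (log2 1.22, adjusted p = 0.043). Cp36 was at 1738 and 1504 CPM against 2744 and 2792 CPM and did not pass (adjusted p = 0.0522). The late chorion genes Cp15, Cp16 and Cp19 overlapped between the groups, with Cp15 at 3639 and 2815 CPM against 2785 and 2852 CPM. Cp18 was at 538 CPM in the first attp2 library and 3377 CPM in the second, beside 634 and 766 CPM in the knockdown, the widest replicate difference among tested genes with a mean of at least 100 CPM.

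Other follicle cell and egg genes moved less. The yolk protein genes Yp1 and Yp3 overlapped between the groups and Yp2 was at 3852 and 4089 CPM against 4313 and 6488 CPM (adjusted p = 0.321), and none of the 8 tested genes of yolk and its uptake was called. ndl, which encodes the follicle cell protease Nudel of the dorsoventral cascade, rose from 286 and 262 to 516 and 562 CPM (log2 0.97, SE 0.16, adjusted p = 0.0215), the one call among 19 genes of that cascade. Of 20 tested genes of EGFR patterning in follicle cells, Fas3, an adhesion molecule, was called, from 54.5 and 51.8 to 90.1 and 83.9 CPM (log2 0.71, SE 0.15, adjusted p = 0.0491), and this call was lost with upper-quartile or no scaling and without 3 of the 4 libraries, the exception being the first of attp2. None of the 24 genes of chorion gene amplification was called, where 2.29% of all tested genes were. The summed level of 6 follicle cell markers, 4 of which are eggshell genes, was 15590 and 13320 CPM in attp2 and 28800 and 29220 CPM in the knockdown. Those of 6 germ cell markers (vas, nos, osk, bam, bgcn and aub) lay between 2715 and 2902 CPM in all 4 libraries, and tj, a follicle cell marker that is no eggshell gene, was at 137 and 143 CPM against 164 and 193 CPM. In bulk ovaries, more cells of a type or stage and more RNA per cell cannot be told apart.

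Of 26 tested genes on a list of follicle cell structure and secretion, Fas3 was again the one called, and the median log2 fold change was 0.082. A few other genes, picked after their values were seen and not as a tested group, have roles in secretion or in the endoplasmic reticulum. CrebA, a transcription factor that raises secretory capacity, rose from 36.7 and 34.7 to 69.9 and 72.6 CPM (log2 1.00, adjusted p = 0.0137), and Sec61beta, a subunit of the translocon of the endoplasmic reticulum, from 53.3 and 52.7 to 97.5 and 92.6 CPM (log2 0.84, adjusted p = 0.025). PH4alphaEFB and PH4alphaPV, prolyl 4-hydroxylase genes, rose from 38.7 and 32.0 to 61.3 and 63.8 CPM and from 30.4 and 21.03 to 52.3 and 48.3 CPM. Another, PH4alphaSG2, had no count in attp2 and 35 in the knockdown, at least 15.1-fold higher. W1118 lay above the knockdown for CrebA, at 93.1 and 93.9 CPM, between the groups for Sec61beta, at 67.2 and 70.8 CPM, and below attp2 for PH4alphaEFB, at 27.6 and 29.7 CPM.

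Hsp70 genes rose, where 1.51% of all tested genes did, while other chaperones did not pass. Hsp70 is the stress-induced chaperone, encoded by near-identical copies at neighbouring sites, between which reads may have been split. Hsp70Bb rose from 2.59 and 0.841 to 23.3 and 45.7 CPM (log2 4.34, SE 0.51, adjusted p = 0.0113), Hsp70Ba from 1.34 and 0.673 to 8.33 and 16.7 CPM (log2 3.63, SE 0.47, adjusted p = 0.00875), and Hsp70Bbb and Hsp70Bc were called at log2 3.11 and 3.19. Hsp70Aa, with 16.9 and 6.98 CPM against 34.5 and 85.4 CPM, and Hsp70Ab were higher in both knockdown libraries without passing (adjusted p = 0.164 for each). In all 6 copies the second knockdown library was above the first, and the first attp2 library above the second. Of the 18 tested genes of the Hsp70 list 4 rose, 2 rose without the second attp2 library and 7 without the first of the knockdown. None of the 10 tested small heat shock and Hsp83 genes was called: Hsp83 was at 3537 and 3329 CPM against 2935 and 3676 CPM, and Hsp26 at 479 and 386 CPM against 271 and 301 CPM (log2 -0.60, adjusted p = 0.149).

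Single genes of the hormone lists rose, 1 of 19 tested for ecdysone response and 1 of 8 for juvenile hormone. Over all tested genes 1.51% rose. A single call in lists this short, as also among the testis genes below, is no result about the list. Eip74EF, an Ets transcription factor gene of the early ecdysone response, rose from 15.6 and 24.1 to 56.3 and 42.6 CPM (log2 1.31, SE 0.24, adjusted p = 0.0296), the one call among 19 tested response genes. It stood at 56.9 and 52.1 CPM in W1118. Hr4 and br, 2 further targets of the hormone, were higher in both knockdown libraries without passing (adjusted p = 0.0533 and 0.0852), and with the first attp2 library left out 4 genes of the list rose. Jheh3, a juvenile hormone epoxide hydrolase gene, rose from 28.8 and 21.03 to 54.6 and 55.9 CPM (log2 1.15, SE 0.19, adjusted p = 0.02). The cytochrome P450 gene Cyp12a4 rose from 2.86 and 7.24 to 36.8 and 40.1 CPM (log2 2.92, SE 0.34, adjusted p = 0.00611), against 1.22 and 0.872 CPM in W1118. fz, a Wnt receptor gene, rose from 38.6 and 40.9 to 78.3 and 70.5 CPM (log2 0.91, adjusted p = 0.0219), below W1118 at 136 and 149 CPM, a call lost without the first knockdown library. bol, which encodes the RNA-binding protein Boule of male meiosis, rose from 52.3 and 47.8 to 103 and 98.2 CPM (log2 1.01, adjusted p = 0.0137), the one call among 6 tested testis genes, and W1118 was near attp2 at 51.3 and 46.0 CPM.

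Among the 12 largest falls of genes with at least 10 CPM in attp2 were a pair of insulin-like peptide genes. Ilp8, a relaxin-like hormone that follicle cells of the adult ovary make and that takes part in ovulation, fell from 146 and 198 to 34.2 and 40.3 CPM (log2 -2.21, SE 0.20, adjusted p = 0.00166). W1118 had 35.4 and 40.3 CPM, so the attp2 libraries were the high ones. Ilp7, better known from neurons that innervate the reproductive tract, fell from 13.2 and 29.4 to 3.55 and 2.14 CPM (log2 -2.90, SE 0.43, adjusted p = 0.0138), with 5.13 and 4.65 CPM in W1118. No other gene of the 19 tested in insulin signalling was called, and 0.778% of all tested genes fell. InR, the receptor, was at 108 and 82.2 CPM against 112 and 108 CPM, foxo, its target transcription factor, at 63.6 and 56.4 CPM against 64.7 and 64.6 CPM, and the list's median log2 fold change was 0.16. Octbeta2R, the octopamine receptor needed for ovulation, was at 12.7 and 22.2 CPM against 7.55 and 6.19 CPM (log2 -1.34, adjusted p = 0.0625) and did not pass.

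Enzymes and genes of other tissues were also among the falls. Over all tested genes 1.51% rose and 0.778% fell. The calls given below for the detoxification list are near these shares, and 1 call among 7 fat body genes says little about that list. CG6910 (now Miox), a myo-inositol oxygenase gene, fell from 29.4 and 23.7 to 3.33 and 4.16 CPM (log2 -2.82, SE 0.24, adjusted p = 0.00117). Cyp6d4, another cytochrome P450 gene, fell from 10.2 and 9.84 to 2.67 and 1.91 CPM, CG2064 (now Rdh1), a dehydrogenase gene, from 13.4 and 19.4 to 4.66 and 5.18 CPM, and phr6-4, which encodes a DNA photolyase, from 49.98 and 54.6 to 18.7 and 10.5 CPM. Of 53 tested detoxification genes 1 rose and 1 fell, with 5 to 6 falls when either attp2 library or the first of the knockdown was left out, and 11 of the 53 had a log2 fold change above 0, with a median of -0.40. Of the 7 tested fat body genes Tsf1, the transferrin gene, fell, from 3.48 and 1.94 to 0.222 and 0.225 CPM (log2 -3.52, SE 0.64, adjusted p = 0.0296), a call lost without the first attp2 library, and the list's median was -1.59. Leaving out 1 library gave from 0 falls, without the first of attp2, to 4, without the first of the knockdown. The summed level of the fat body markers Lsp1alpha, Lsp2, Fbp1, Tsf1 and to was 7.59 and 5.72 CPM in attp2 and 1.67 and 0.45 CPM in the knockdown, and that of 4 gut markers 3.93 and 1.35 CPM against 0.666 and 0.113 CPM. Their part in the falls of low genes was not tested. Muscle markers summed to 229 and 109 CPM against 196 and 162 CPM and hemocyte markers to 113 to 143 CPM in all 4 libraries, and both overlapped between the groups. The hemocyte sum was mostly crq, at 103 and 116 CPM in attp2 and 138 and 112 CPM in the knockdown. Hml was at 4.11 and 1.85 against 1.67 and 1.69 CPM, and Pxn at 6.43 and 1.35 against 3.55 and 3.71 CPM. Testis markers summed to at most 1.09 CPM.

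Further falls joined a few functions. Ssb-c31a, which encodes a single-stranded DNA binding protein, fell from 79.5 and 52.8 to 18.7 and 19.8 CPM (log2 -1.78, SE 0.22, adjusted p = 0.00666), against 54.5 and 64.9 CPM in W1118. nAcRalpha-80B (now nAChRalpha4), a subunit gene of the nicotinic acetylcholine receptor, fell from 23.1 and 28.3 to 8.44 and 7.09 CPM (log2 -1.73, adjusted p = 0.00666), and its neighbour CG32350 (now Vps11), of vesicle tethering at the lysosome, from 79.4 and 85.1 to 32.9 and 39.8 CPM (log2 -1.18, adjusted p = 0.0113). mp (now Mp), which encodes the basement membrane collagen multiplexin, fell from 38.4 and 26 to 7.55 and 12.2 CPM. CG12708 fell from 54.9 and 58.4 to 14.99 and 6.41 CPM, a call lost without either attp2 library, and CG13101 from 19.5 and 13.6 to 5.22 and 5.40 CPM. cid, which encodes the histone H3 variant of centromeres, fell from 129 and 166 to 75.3 and 64.1 CPM (log2 -1.08, SE 0.18, adjusted p = 0.022), while W1118 had 35.9 and 33.2 CPM, below the knockdown. Its loader gene cal1 was at 350 and 301 CPM against 370 and 326 CPM (adjusted p = 0.802).

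Small RNA genes of the nucleolus and spliceosome showed single changes. snoRNA:Psi28S-2626, a guide of ribosomal RNA modification, fell from 192 and 238 to 63.7 and 78.2 CPM (log2 -1.60, SE 0.18, adjusted p = 0.00596), and W1118 had 31.3 and 25.0 CPM. Of 195 tested small nucleolar RNA genes 4 fell and 1 rose, a share near the 2.29% of all tested genes, while 11 fell without the second knockdown library and 7 without the second of attp2. Of 45 small nuclear and other abundant noncoding RNA genes 2 fell, the near-identical U2 copies snRNA:U2:34ABb and snRNA:U2:34ABc, the latter from 290 and 278 to 167 and 174 CPM (log2 -0.74, SE 0.15, adjusted p = 0.0478), a call lost without either knockdown library. Of this list 7 fell without the first attp2 library, 1 without the second of the knockdown and none without the first. All 19 tested replication histone genes had a log2 fold change below 0, with a median of -0.65, and none was called. They are near-identical copies, several with equal counts. Of 87 ribosomal protein genes none was called and 17 were above 0, with a median of -0.16.

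The genes of heterochromatin were examined because the piRNA pathway acts on chromatin. Of 29 tested pericentromeric genes 2 fell and none rose, where 0.778% of all tested genes fell. A log2 fold change above 0 was seen in 5, and in 4061 of all 8224 tested genes. The median was -0.30 beside -0.006 over all genes tested. The 2 attp2 libraries differed from each other by a median of -0.27 on this list, first minus second, about as much as the groups did. CG17490 fell from 91.1 and 74.6 to 41.2 and 43.1 CPM (log2 -0.98, SE 0.16, adjusted p = 0.0221), and Cht3, a chitinase gene, from 6.34 and 11.6 to 2.44 and 1.69 CPM (adjusted p = 0.0341). When the first attp2 library was left out 5 genes of the list fell. l(2)41Ab, which is not on the list but has the symbol of a band near the centromere, rose from 5.53 and 4.46 to 27.7 and 30.04 CPM (log2 2.53, SE 0.21, adjusted p = 0.00117). It was named after its values were seen, and was also higher in the mutant, at 98.5 and 86.3 CPM against 4.64 and 6.40 CPM in W1118 (log2 4.01, adjusted p = 1.33e-08). rl, the ERK kinase gene, and lt, of vesicle trafficking to the lysosome, were at 43.5 and 67.0 against 44.4 and 49.8 CPM and at 44.1 and 34.1 against 27.7 and 31.4 CPM, and neither passed. Of 50 tested genes on a list for the small chromosome 4, mGluRA, a glutamate receptor gene, fell from 3.48 and 4.46 to 0.555 and 0.338 CPM (adjusted p = 0.0179) and Caps from 4.82 and 4.38 to 1.33 and 0.45 CPM (adjusted p = 0.0483). The median was -0.22, and the attp2 libraries differed from each other by a median of -0.194 on this list, first minus second. Without the first knockdown library 4 of the list fell, and without the second 1. On the X and the large autosome arms the share of tested genes called was between 1.63% on 2R and 2.96% on 2L. Called neighbours that changed the same way included Vm26Ab, Vm26Ac, Vm26Aa and psd, the 4 Hsp70B copies, danr and dan, and CG32350 and nAcRalpha-80B.

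**Figure D4:**
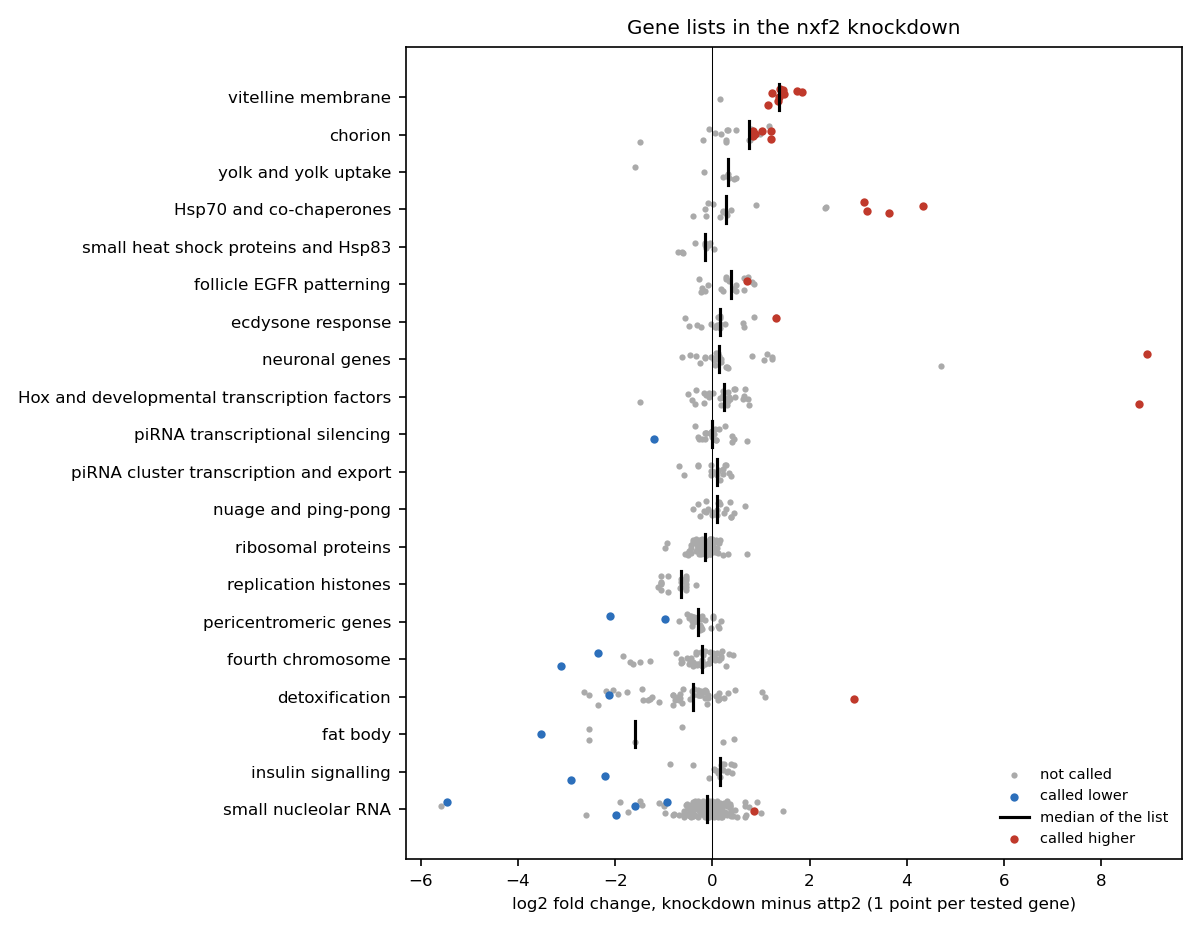
Log2 fold changes of the knockdown over attp2 for the tested genes of 20 lists, 1 point per gene, with the list's median as a bar. Vitelline membrane genes gather near their median of 1.38, chorion genes spread from -1.48 to 1.22, and the piRNA lists lie around 0 with nxf2 as their one called gene.

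The W1118 libraries show where attp2 itself stands apart from another wild-type stock. The 2 stocks differ in background: the eye colour gene w was at 29.7 and 24.0 CPM in attp2 and 27.3 and 25.5 CPM in the knockdown, and had no count in W1118. The eye colour gene v was at 0.714 and 0.589 CPM in attp2 and 2.11 and 2.25 CPM in the knockdown (adjusted p = 0.119). Knockdown and W1118 libraries differed in 4572 of 8089 tested genes (56.5%). Of the 124 genes called higher than attp2, 96 (77.4%) had both knockdown libraries above both W1118 libraries and 16 (12.9%) had them below, where 43.9% and 35.6% of all tested genes did. Of the 64 called lower, 30 (46.9%) were also below W1118 and 21 (32.8%) were above it. These counts share the knockdown libraries with the main comparison. Shawl, CG31202, prom, CG9650 and Hsp70Bb were higher than either stock. Vm32E, Eip74EF and Ilp8 in the knockdown were within 0.18 on the log2 scale of W1118 (adjusted p = 0.707, 0.324 and 0.629). The lack of a call does not show that they were equal. In each of these genes attp2 lay apart from both W1118 and the knockdown. Which of the groups had changed was not tested. The median log2 fold change of the 10 vitelline membrane genes was 0.54 against W1118, with 5 called higher and 2 lower, and 1.38 against attp2. Whether the knockdown flies and the attp2 flies differ in stock beyond nxf2 was not tested.

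The mutant of nxf2 was compared with W1118 in other libraries, and the difference between the 2 effects was tested directly. That test used 1 spread per gene for all 8 libraries, although the groups differed in spread. Chi-square over its degrees of freedom was 35.7 in attp2 and 1.59 in W1118. The calls hold only as far as the shared spread does. Of the 188 genes called in the knockdown 105 differed in effect between knockdown and mutant, where 1522 of 8537 tested genes (17.8%) did. This number fell to 296 without the second W1118 library and rose to 2552 without the first of attp2. Of the 105, 62 were higher in the knockdown with a larger effect than in the mutant and 37 were lower with a more negative one. Because the 188 were chosen on the knockdown effect, the count is given as a description. Of the 10 vitelline membrane genes 9 had a higher effect in the knockdown, with a median log2 fold change of -0.36 in the mutant. The 21 chorion genes had a median of 0.99 in the mutant. None of them was called for a higher effect in the knockdown and 2 for a lower one. CG31202 was high in both, with 0 counts in W1118 and 35.9 and 32.9 CPM in the mutant, and its difference of effects did not pass (adjusted p = 0.498). nAcRalpha-80B was lower in both, at 22.2 and 22.97 CPM in W1118 and 7.86 and 6.90 CPM in the mutant (log2 -1.62, adjusted p = 4.05e-05), and Dscam2 was higher in both, with 11.9 and 11.5 CPM in the mutant (log2 2.35, adjusted p = 4.88e-05). Cyp12a4 and Jheh3 were also called higher in both, at log2 3.61 and 1.40 in the mutant. Over all genes, mutant and W1118 differed in 3033 of 8016 tested (37.8%). Shawl, prom and CG3491 were at 0 to 0.123 CPM in the mutant.

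The largest differences of effects, among genes called for that difference and in the knockdown, included low genes. CG5644 rose from 1.70 and 1.598 to 5.66 and 7.43 CPM in the knockdown and was lower in the mutant, with 1.06 and 0.740 CPM against 4.89 and 3.93 CPM in W1118. The knockdown call was lost without its second library. Sodh-1, a sorbitol dehydrogenase gene, fell from 65 counts in attp2 to 3 in the knockdown, a ratio of 16.8 with a counting interval of 5.50 to 83.5, and was higher in the mutant, at 2.02 and 2.22 CPM, than in W1118, at 0.244 and 0.436 CPM. snoRNA:Psi18S-525c fell from 68 counts to 1, a ratio of 52.7 with an interval of 9.14 to 2110, and stood at 5.63 and 4.44 CPM in the mutant, but its knockdown call was lost without the first attp2 library. CG15067 (now BomBc2), an immune peptide gene, fell from 9.82 and 3.37 to 0.444 and 0.45 CPM (adjusted p = 0.025), and was too low to be tested in the mutant.

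**Figure D5:**
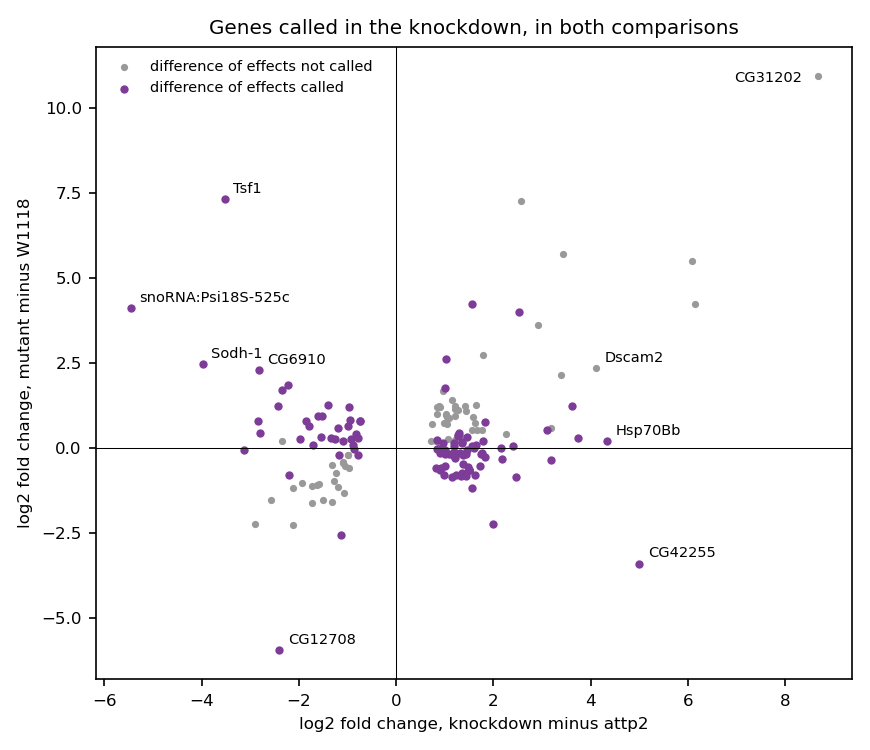
Log2 fold change of the knockdown over attp2 against that of the mutant over W1118 for the 168 called genes with a value in both, 1 point per gene. For 103 of them (purple) the difference of effects was called; CG31202 and Dscam2 lie in the upper right, and CG42255 and CG6910 have opposite signs on the 2 axes.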

How the data were processed

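Ovary RNA of attp2 and germline nxf2 knockdown flies was sequenced in 2 libraries each. The authors deposited unnormalized read counts by gene in 1 table of 12 libraries whose columns carry the sample titles. STAR 2.5.2a, featureCounts 1.6.1, cutadapt 1.16, deepTools 2.5.7 and bcl2fastq 1.8.4 were used with the genome dm3, per the submitters' processing notes. The sources used here give neither the gene annotation nor a strand setting, so overlapping and antisense genes and near-identical copies can share reads. Per the labels' protocols, libraries were primed with not-so-random primers.

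Genes were kept by filterByExpr (8224 of 15446) and tested with edgeR 4.0.16 in R 4.3.3: TMM scaling, robust quasi-likelihood fit of the 4 libraries alone, with 2 residual and a median of 6.52 prior degrees of freedom, and a common BCV (the replicate coefficient of variation beyond counting error) of 0.148. Adjusted p-values are Benjamini-Hochberg over all genes tested, and SE come from the same fit. CPM of the other libraries use TMM factors of all 12, rescaled to the same mean size of the 4. A floor of 3 counts is 0.252 to 0.337 CPM per library here, and intervals and floors cover counting error only. The difference of effects was fitted on 8 libraries, and knockdown against W1118 on 4. DESeq2 1.42.0, limma 3.58.1 voom, other scalings and filters, a replicate block and leaving out each library were alternatives. The procedure was tested on simulated data with known changes in 50 genes at each size. It called 11 of those changed 1.5-fold, 29 at 2-fold, 45 at 4-fold and 50 at 8-fold. It also made 16 false calls beside these right ones, among 8157 genes fitted. That is a larger share of its calls than the cut-off of 0.05 aims for. Since changes were missed at each size up to 4-fold, a gene that was not called can still differ by as much.

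Named genes are nxf2, Panx, Nxt1 and piwi; the 12 largest rises and falls among called genes with a higher mean of at least 10 CPM; the member with the smallest p of each of 53 lists with a call; and the 4 largest differences of effects in each direction. Members of lists are also given as description. The comparison and lists were chosen with earlier results of these data known. Same-numbered replicates are not said to be paired. Gene names and arms come from release 6 tables, which matched an arm for 8125 of 8224 genes, and no coordinates or sequences are given, since the build differs.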

Additional observations from a re-analysis of the deposited data

Results flagged for a closer look

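The genes below are those of the 12 largest rises and 12 largest falls whose effects in the knockdown (against attp2) and the mutant (against W1118) differed. This was by edgeR's test of the difference itself, and the 2 effects share no library. The genes were chosen on the knockdown effect, which is part of the difference tested. A larger effect in the knockdown than in the mutant is thereby favoured, so the genes are given as a description. The stocks, the kind of nxf2 loss and the cells that lack nxf2 all differ between the 2 effects and cannot be told apart. Differences are on the log2 scale, knockdown effect minus mutant effect.

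Rises of the knockdown that the mutant did not show in that size were those of CG42255 (8.35), which was lower in the mutant, Hsp70Bb (4.09), CG9650 (3.39) and Hsp70Ba (2.32). Their mutant libraries held 0.106 and 0.616 CPM of CG42255, 3.50 and 3.21 CPM of Hsp70Bb, 23.03 and 12.6 CPM of CG9650 and 4.56 and 3.21 CPM of Hsp70Ba. Genes that fell in the knockdown with an effect below that in the mutant were CG6910 (-5.17), phr6-4 (-2.69), snoRNA:Psi28S-2626 (-2.60), Ssb-c31a (-2.49), mp (-1.83) and Ilp8 (-1.48). For CG6910, phr6-4 and snoRNA:Psi28S-2626, W1118 was below the knockdown. CG12708 (3.50) fell in both and further in the mutant, from 28.1 and 29.7 CPM in W1118 to 0.212 and 0.740 CPM.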

How the results depend on the processing

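The 188 genes called in the knockdown against attp2 became 1356 with all 12 libraries in 1 fit, 300 with DESeq2, 343 with limma voom and group quality weights, and 315 with no filter, and they stayed within 1.5 times of 188 under upper-quartile, RLE and no scaling, a filter at 5 CPM and without robust estimation. Leaving out 1 library gave 251 to 380 calls, the most without the first attp2 library, of which 143 to 159 were among the 188. Same-numbered replicates did not deviate together (correlation 0.0819), and a replicate block, which leaves 1 residual degree of freedom, called 845. With no scaling the median of all genes moved to -0.10. The difference of effects was called for 1522 genes, for 2331 with all 12 libraries and for 296 to 2552 on leaving out 1 library, and for 1566 with the replicate block. The count against W1118 was 4572, with 2702 to 5669 on leaving out 1 library and 4838 with the block. Of the 47 named genes 46 kept their direction in each setting that gave them a value, and a filter at 5 CPM gave one for 41. piwi, which was not called, ranged from -0.78 to 0.205 on leaving out 1 library, turning from -0.21 to 0.197 without the first attp2 library and to 0.205 without the first of the knockdown. A lone library left in a group is assumed to vary like the other group. With 2 residual degrees of freedom the error of a single gene rests mostly on the spread of all genes, and 1 count is 0.0841 to 0.112 CPM, which limits low genes.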
